A study of Mus musculus with 4 samples.

Results

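Dlg1, Dlg2, Dlg3, Dlg4, Dlgap1, Shank1, Shank2, Shank3 and Homer1 encode scaffold proteins of the excitatory postsynaptic density. They were chosen by gene symbol, and all 9 symbols were found, each once, among the 43348 genes of the deposited matrices. The study asked how loss of NMDA receptors affects interneurons that descend from the medial ganglionic eminence. Cells were sorted from frontal cortex and hippocampus of juvenile mice between postnatal days 18 and 20 and were sequenced with droplet-based 3′ tags. All mice carried Nkx2-1-Cre and the Cre-dependent Ai14 reporter of TdTomato, and WT mice were Grin1 wt/wt while Grin1-null mice were Grin1 fl/fl. The mice were littermates of both sexes, libraries pooled mice processed on consecutive days, and the solutions held TTX, APV and Actinomycin-D, which block sodium channels, NMDA receptors and transcription.

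The data form 10 libraries in 4 groups: 3 of WT cortex, 2 of Grin1-null cortex, 3 of WT hippocampus and 2 of Grin1-null hippocampus. Libraries within a matrix were told apart by barcode suffix, and no pair of libraries shared more than 12 cell barcodes. Replicate 1 of each group was made with 10x chemistry v2, and replicates 2 and 3 with v3. Of 26987 cells, 26201 were kept. The median depth in UMIs per cell was 7098, 2903 and 6519 for replicates 1, 2 and 3 of WT cortex, and 6641 and 8224.5 in the null cortex. It was 4411, 1479 and 5741 in WT hippocampus, and 8839 and 9508 in the null hippocampus. Hippocampus WT replicate 2 was therefore the shallowest library, and the null libraries were deeper than most WT ones. Cells above the mitochondrial limit made up 9.90% of cortex Grin1-null replicate 2 and 5.97% of hippocampus Grin1-null replicate 2, against at most 0.127% in any WT library.

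Clusters were named from marker genes, with the 9 scaffold genes and the other listed synaptic genes left out of the genes used for clustering. Of the 34 clusters, 10 with 9833 cells were interneurons of the SST, PVALB or NGFC (neurogliaform) classes, and each held at least 5 of the markers it was named by at 20 CPM or more. The SST class included 2 clusters named by markers of Th-expressing cells, numbered 7 and 12. Cluster 7 held 7 SST and 3 PVALB markers, but cluster 12 (760 cells) held 1 SST marker and 7 PVALB markers beside its 6 Th markers. The sort also held cells outside the neuronal lineage under study, 5893 WT and 2823 null oligodendrocytes among them. A cluster of 1226 cells with SST markers was left unnamed because its median UMI count was 0.309 of that of its samples and no SST marker was among its top 10 genes. That cluster held 14, 206 and 156 cells of WT cortex, 25 and 92 of null cortex, 8, 588 and 52 of WT hippocampus, and 18 and 67 of null hippocampus. Hippocampus WT replicate 2 kept 245 named SST cells. Clusters 24 (403 cells) and 19 (514 cells) held 5 and 7 SST markers and were also left unnamed. Their pooled WT levels of Dlgap1 were 309 and 911 CPM. Levels are given as CPM, the share of all UMIs of a class in 1 library that a gene takes.

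Scaffold proteins of the postsynaptic density tie glutamate receptors to each other, to adhesion proteins and to the cytoskeleton. The MAGUK proteins (Dlg1 to Dlg4) bind the tails of NMDA receptor subunits, SAPAP proteins such as Dlgap1 link MAGUKs to Shank proteins, and Homer proteins bind Shanks in turn. Many interneurons receive excitatory synapses on dendritic shafts with few spines.

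Grin1, the obligate subunit of NMDA receptors and the gene targeted in the mice, was read first to check the labels. In SST cells its level was 152, 253 and 231 CPM over the 3 WT cortex libraries in replicate order, and 36.2 and 27.4 CPM in the null cortex. In hippocampal SST cells it was 121, 197 and 155 CPM in WT libraries, and 24.1 and 21.8 CPM in null ones. Every null library thus lay below every WT library of its region, with no overlap. The log2 change from WT to null in SST cells was −2.77 (SE 0.35, edgeR adjusted p = 0.0403) in cortex and −2.77 (SE 0.35, adjusted p = 0.0405) in hippocampus. PVALB cells held 113, 213 and 178 CPM in WT cortex, 42.5 and 23.5 CPM in null cortex, 102, 164 and 125 CPM in WT hippocampus, and 21.8 and 16.7 CPM in null hippocampus. NGFCs held 114, 182 and 165 CPM in WT cortex, 36.3 CPM in the 1 null cortex library with enough cells, 117, 111 and 134 CPM in WT hippocampus, and 30.03 and 15.6 CPM in null hippocampus. Again no null library reached a WT library of its region. The log2 changes were −2.53 (SE 0.41, adjusted p = 0.0295) in cortical and −2.87 (SE 0.42, adjusted p = 0.0623) in hippocampal PVALB cells, and −2.08 (SE 0.53, adjusted p = 1.0) and −2.47 (SE 0.42, adjusted p = 0.486) in cortical and hippocampal NGFCs. A change was called at an adjusted p under 0.01 with a natural-log change of at least 0.1, so none of these 6 was called by edgeR, although the levels follow the labels in each library. Glutamatergic cells held 143, 243 and 174 CPM of Grin1 in WT cortex, and 42.6 CPM in cortex Grin1-null replicate 2. In hippocampus they held 94.0 (3 UMIs) and 211 CPM in WT replicates 2 and 3, and 95.6 CPM in Grin1-null replicate 2. The lower cortical level, in 1 null library, was thus not confined to the interneuron classes. In the paper, the reduction appeared in the interneuron subsets but not in glutamatergic neurons. The cause of this difference was not tested. The deleted part of Grin1 is not given in the sources used here, and a 3′ tag outside it would not follow the deletion.

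Among WT cells, the 9 genes differed in which classes carried them. Dlg1 (SAP97), a MAGUK found in many tissues, was highest in oligodendrocytes, at 108 ± 45.9 CPM (mean ± SD, n = 6 libraries), while SST, PVALB and NGFC cells held 36.0 ± 9.66, 38.7 ± 14.3 and 31.0 ± 17.0 CPM. Dlg2 (PSD-93) was at 53.4 ± 24.4 CPM in SST, 44.6 ± 28.6 in PVALB and 47.1 ± 27.6 in NGFC cells, and at 23.5 ± 15.3 CPM in oligodendrocytes. Dlg3 (SAP102), the MAGUK of young synapses, was at 80.7 ± 31.5 CPM in NGFCs, 63.4 ± 17.0 in PVALB and 58.0 ± 18.4 in SST cells. Thus Dlg1 was not confined to neurons, whereas Dlg3 was low in the oligodendrocyte lineage, with 3.04 ± 1.84 CPM in oligodendrocytes and 10.98 ± 7.06 in their precursors. Dlg4 (PSD-95), the most used marker of excitatory postsynapses, was at 167 ± 52.0 CPM in the few sorted glutamatergic cells (n = 5) and at 90.1 ± 18.1, 82.6 ± 24.4 and 82.3 ± 23.3 CPM in SST, PVALB and NGFC cells. The library ranges of neighbouring classes in each of these orders overlapped, except that for Dlg4 the lowest interneuron library (50.5 CPM) lay above the highest astrocyte library (35.0 CPM).

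Dlgap1 (SAPAP1), which bridges MAGUKs and Shanks, had the clearest order among interneurons. It was at 717 ± 110 CPM in PVALB cells and 663 ± 187 in NGFCs, against 456 ± 33.2 in SST cells (n = 6 each). Glutamatergic cells held 504 ± 110 CPM, oligodendrocyte precursors 224 ± 47.7, astrocytes 198 ± 87.6 and oligodendrocytes 11.9 ± 7.18. The ranges of PVALB and SST cells did not overlap, since the lowest PVALB library was at 566 CPM and the highest SST library at 503, while the NGFC range of 339 to 891 CPM spanned both. Homer1, whose long forms bind Shank and whose short form is induced by activity, was at 150 ± 70.5 CPM in glutamatergic cells and at 59.8 ± 10.7, 56.8 ± 11.2 and 49.8 ± 6.65 CPM in PVALB, SST and NGFC cells. The 3′ tags were counted per gene, so the short form was not told apart from the long ones.

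The Shank genes, which encode the large scaffolds beneath the MAGUK layer, gave few UMIs in every interneuron class. Shank1 was at 12.3 ± 7.91 CPM in PVALB, 11.2 ± 8.53 in NGFC and 7.42 ± 4.04 in SST cells. Shank2 was at 23.3 ± 5.37 CPM in NGFC, 19.2 ± 7.59 in PVALB and 15.2 ± 3.09 in SST cells. Shank3 was at 5.87 ± 3.998 CPM in NGFC, 5.64 ± 3.19 in SST and 3.18 ± 3.15 in PVALB cells. The spread between libraries was large for Shank1 and Shank3, and the v2 libraries were low for both. No Shank3 UMI was found in the PVALB sums of cortex WT replicate 1, hippocampus WT replicate 1 and hippocampus Grin1-null replicate 1, which allows levels of up to 2.75, 8.76 and 6.53 CPM (3 counts of each total). The NGFC sum of cortex WT replicate 1 held none either, which allows up to 9.80 CPM. Outside the interneurons, Shank2 was at 41.4 ± 31.8 CPM in glutamatergic cells (n = 5). In choroid plexus and ependymal cells it was at 15.7 CPM in the largest sum, of 134 cells, and at 32.7 and 111 CPM in sums of 12 cells with 1 Shank2 UMI each. The glutamatergic sum of hippocampus WT replicate 2 held 16 cells and 31921 UMIs, so single UMIs moved its levels.

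**Figure D1:**
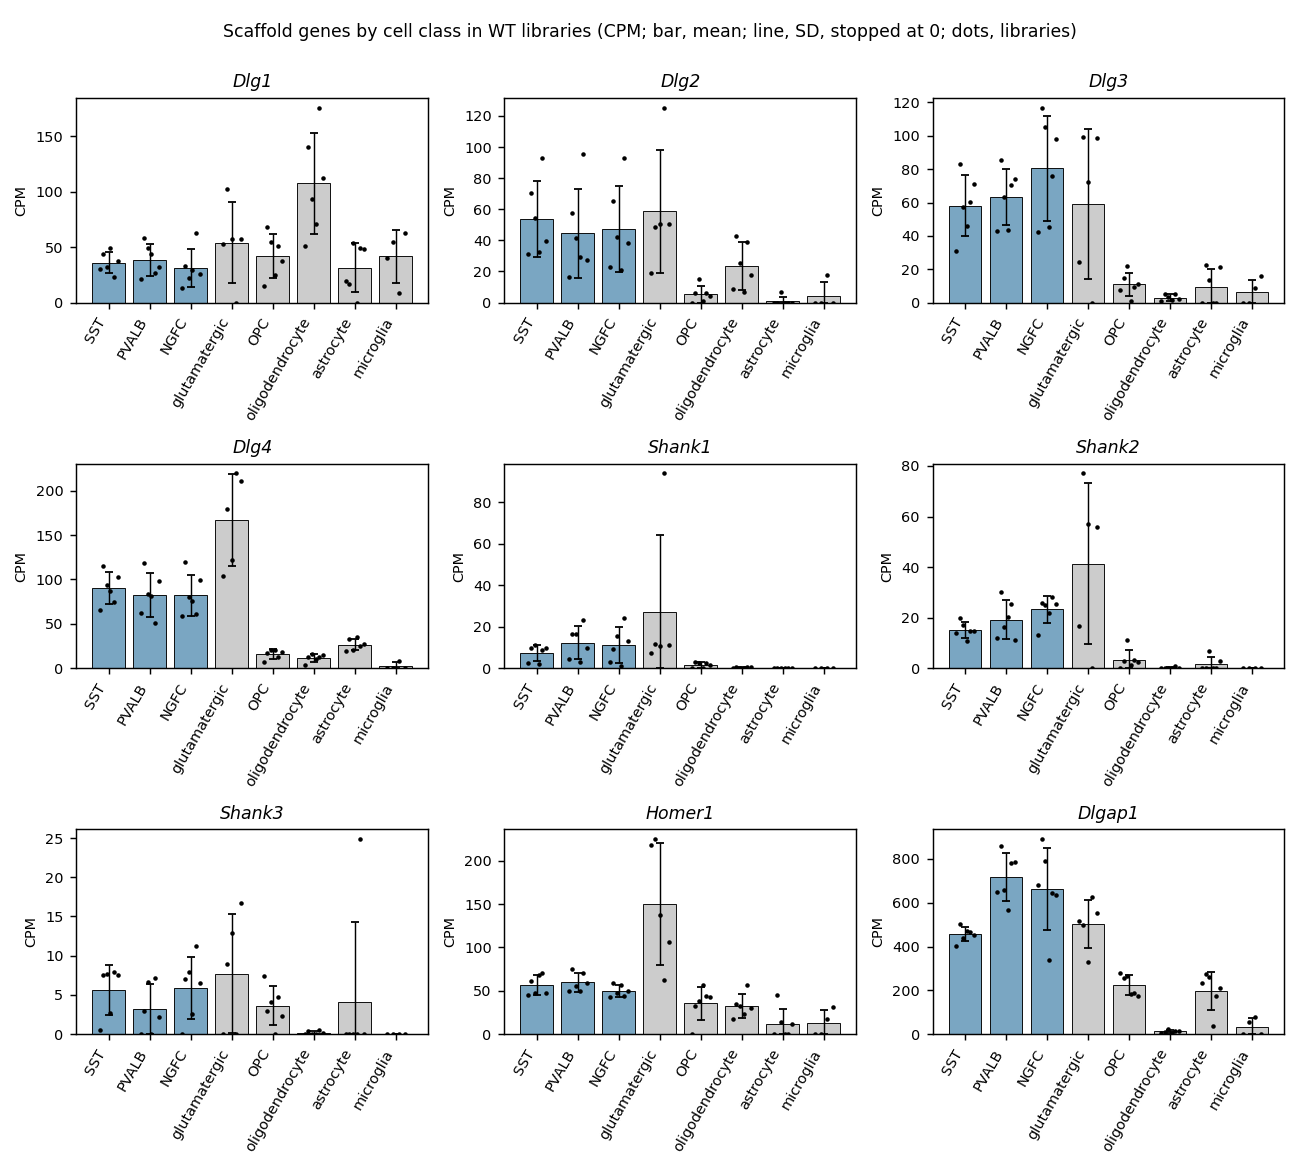
Levels of the 9 scaffold genes in CPM (vertical axes) in 8 cell classes of the WT libraries, with interneuron classes in blue. Bars are means over libraries, lines are 1 SD stopped at 0 and dots are libraries; Dlgap1 is at 717 CPM in PVALB against 456 CPM in SST cells, and Dlg1 is highest in oligodendrocytes at 108 CPM.

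PVALB and SST cells, the fast-spiking and the dendrite-targeting classes, were compared in the 6 WT libraries with the library as a block. Dlgap1 was higher in PVALB cells, with a lowest, median and highest library of 566, 720 and 858 CPM against 404, 460 and 503 CPM in SST cells. It was higher in 6 of 6 libraries, with a log2 difference of 0.63 (SE 0.11, edgeR adjusted p = 0.000184). Dlg2 was lower in PVALB cells, with a lowest, median and highest library of 16.5, 35.3 and 95.6 CPM against 31.1, 47.0 and 92.8 CPM. The ranges of Dlg2 overlapped widely, and the difference showed only within libraries. It was lower in 5 of 6 libraries, with a log2 difference of −0.37 (SE 0.10, adjusted p = 0.00825). These were 2 of the 8 scaffold genes tested, 1 higher and 1 lower, against 2087 of all 9452 genes (22.1%), so the share was near that of all genes. The median log2 difference was 0.17 over the 8 genes and 0.0007 over all genes. Shank3 was not tested in any class comparison because its counts were under the low-count filter.

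Shank1, singled out after its values were seen, was just outside the threshold in that comparison. Its lowest, median and highest library was 2.92, 13.2 and 23.4 CPM in PVALB cells against 2.13, 9.33 and 11.4 CPM in SST cells. It was higher in 6 of 6 libraries, with a log2 difference of 0.61 (SE 0.17, adjusted p = 0.0102). Shank1 was called when hippocampus WT replicate 3 was left out (0.68, adjusted p = 0.00821) and with the unnamed low-UMI cluster counted as SST (0.57, adjusted p = 0.00708), within a range of adjusted p from 0.00234 to 0.464 over its alternatives. Dlg2 was called in 2 of 6 fits that left out a library. It was not called without cortex WT replicate 1 (−0.31, adjusted p = 0.0365), 2 (−0.38, 0.0422) or 3 (−0.36, 0.0557), or hippocampus WT replicate 3 (−0.36, 0.0167). Over 14 other alternatives Dlg2 was called in 8, with a log2 difference of −0.43 to −0.20. Its call therefore depends on which libraries are in and on the processing. Dlgap1 was called in 6 of 6 such fits. With the Th clusters left out of the SST class, 4 scaffold genes were called, beside 2220 of 9453 genes in all. The added ones were Shank1 (0.77, adjusted p = 0.00234) and Dlg1 (0.77, adjusted p = 0.00445), the latter at 0.19 with those cells in. The classes compared come from the same cells, although the scaffold genes had no part in the clustering.

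NGFCs, which release GABA by volume transmission, carried more Dlg3, Shank2 and Dlgap1 than SST cells. Dlg3 had a lowest, median and highest library of 42.5, 87.0 and 117 CPM in NGFCs against 30.7, 58.6 and 83.1 CPM in SST cells. It was higher in 5 of 6 libraries, with a log2 difference of 0.50 (SE 0.10, adjusted p = 0.000625). Shank2 had a lowest, median and highest library of 13.1, 25.4 and 28.2 CPM in NGFCs against 10.6, 14.7 and 19.9 CPM in SST cells. The 1 NGFC library inside the SST range for Shank2 was cortex WT replicate 1. Shank2 was higher in 5 of 6 libraries, with a log2 difference of 0.70 (SE 0.18, adjusted p = 0.00463). Dlgap1 had a lowest, median and highest library of 339, 662 and 891 CPM in NGFCs, and its low library, hippocampus WT replicate 1, was below every SST library. Dlgap1 was higher in 5 of 6 libraries, with a log2 difference of 0.51 (SE 0.11, adjusted p = 0.00128).

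These 3 were called of 8 scaffold genes tested between NGFC and SST cells, beside 2291 of 9452 genes in all (24.2%), and 8 genes are too few to set their share apart from that. The median log2 difference was 0.20 over the 8 genes, at −0.05 without hippocampus WT replicate 2, and 0.02 over all genes. Dlg3 was called in 6 of 6 fits that left out a library. Dlgap1 was not called without cortex WT replicate 1 (0.46, adjusted p = 0.0117), 2 (0.46, 0.0113) or 3 (0.44, 0.0102). Shank2 was not called without cortex WT replicate 3 (0.74, adjusted p = 0.0107) or without hippocampus WT replicate 1 (0.64, 0.0145), 2 (0.66, 0.0164) or 3 (0.58, 0.0467). In hippocampus WT replicate 2, 515 of the 518 NGFCs came from cluster 16, whose median was 1665 UMIs per cell, while in the other WT libraries most NGFCs came from cluster 2.

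Between NGFC and PVALB cells, 0 of 8 scaffold genes were called, by edgeR and by DESeq2, against 2274 of 9452 genes (24.1%) in all. An unadjusted p under 0.05 by edgeR was reached by 3 of the 8 genes, Dlg3, Shank2 and Homer1, against 4101 of all 9452 genes (43.4%). Dlg3, named after its values were seen, was at 0.37 (SE 0.11, adjusted p = 0.0124) and higher in NGFCs in 5 of 6 libraries, and it was called without hippocampus WT replicate 1 (0.42, adjusted p = 0.00640). Shank2 was at 0.49 (SE 0.20, adjusted p = 0.0632) and Homer1 at −0.28 (SE 0.12, adjusted p = 0.0741). Dlg1 was the lowest at −0.34 (SE 0.26, adjusted p = 0.343), with NGFC levels of 13.1, 32.7 and 22.0 CPM in cortex and 29.8, 62.9 and 25.5 CPM in hippocampus. The 62.9 CPM belonged to hippocampus WT replicate 2, and without that library Dlg1 was called (−0.78, adjusted p = 0.00436), 1 of 8 genes, while without cortex WT replicate 3 it was at −0.10 (adjusted p = 0.852). The median log2 difference was −0.003 over the 8 genes and 0.02 over all genes. Grin1 itself was lower in PVALB than in SST cells (−0.31, SE 0.08, adjusted p = 0.00724) and lower in NGFC than in SST cells (−0.39, SE 0.09, adjusted p = 0.00204), in 6 of 6 libraries each. Those calls held in 2 and in 4 of the 6 fits that left out a library.

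**Figure D2:**
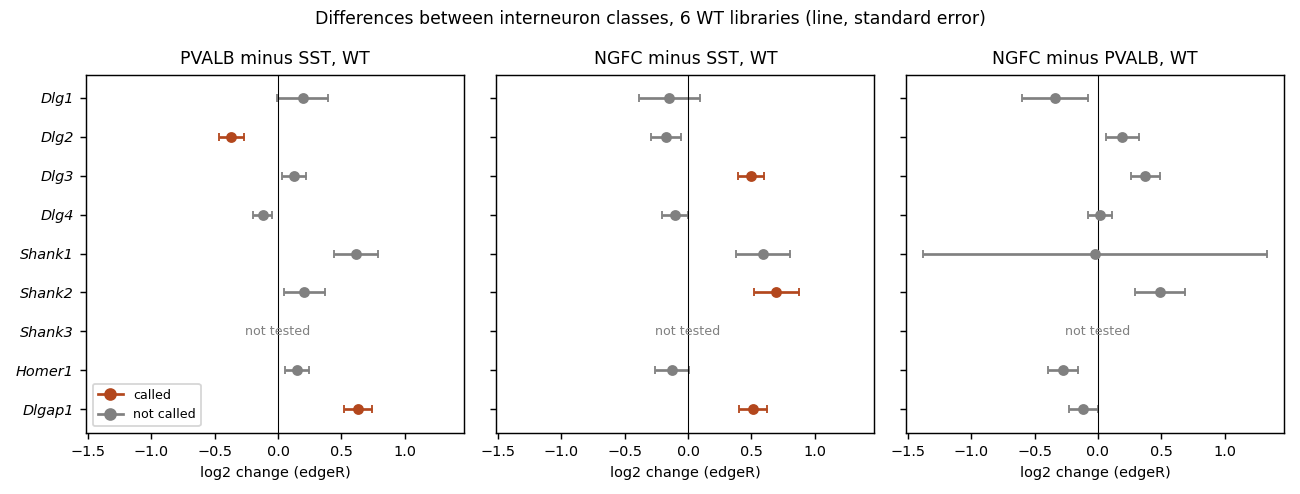
Log2 differences between interneuron classes (horizontal axes, edgeR over 6 WT libraries) for the scaffold genes, with standard errors as lines. Red points are called genes and grey points are not; Dlgap1 is 0.63 higher in PVALB than in SST cells and Dlg3 is 0.50 higher in NGFC than in SST cells, and Shank3 was not tested.

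Clusters within a class also differed for some genes. Dlgap1, pooled over WT cells, ranged in SST clusters from 326 CPM in cluster 5 (1186 cells) to 512 CPM in cluster 3 (1046 cells), and reached 823 CPM in Th cluster 12 (486 cells) but 390 CPM in Th cluster 7 (942 cells). Over libraries with enough cells, the range was 270 to 376 CPM in cluster 5 and 806 to 884 CPM in cluster 12, so these did not overlap. PVALB clusters held 682 CPM (cluster 1), 839 (cluster 31) and 926 (cluster 25) pooled, but their library ranges of 624 to 825, 658 to 1333 and 459 to 1219 CPM overlapped. Dlg1 was at 90.3 CPM in Th cluster 12, with 77.0 to 122.99 CPM over 5 libraries, and at 21.0 CPM in SST cluster 3, with 10.3 to 35.0 CPM over 6. The same cluster 12 was thus high in both genes. Homer1 was at 22.4 CPM in SST cluster 23 (249 cells) and between 43.4 and 69.4 CPM in the other SST and Th clusters. NGFC cluster 16 held more Dlg1 than NGFC cluster 2 (65.3 against 23.7 CPM) and more Dlg2 (84.6 against 37.6 CPM), and it came mostly from hippocampus WT replicate 2. For Dlg1 the 2 WT libraries with enough cells of cluster 16 were at 54.2 and 63.7 CPM, above the 13.5 to 28.0 CPM of cluster 2, and the 1 null library was at 76.2 CPM against 11.7 to 37.9 CPM. For Dlg2 the WT ranges overlapped, with 45.2 and 93.2 CPM against 21.3 to 63.4 CPM, and the 1 null library was at 42.3 CPM against 32.7 to 37.9 CPM. The clusters were not compared within single libraries. These cluster values carry no test.

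The share of cells with at least 1 UMI is given beside depth. Dlgap1 was seen in 89.2% of 3909 WT SST cells (median 7428 UMIs), 93.8% of 1599 PVALB cells (median 6851) and 76.9% of 1333 NGFCs (median 3449), against 3.60% of 5893 oligodendrocytes (median 3489), a class of like depth to the NGFCs. With every cell thinned to 1000 UMIs and shallower cells left out (7, 27, 152 and 648 cells), the shares were 36.1%, 50%, 46.9% and 1.12%. The order of SST and NGFC cells in the raw share was therefore the reverse of that in CPM and in the thinned share. Dlg4 was seen in 49.7%, 44.2% and 29.1% of SST, PVALB and NGFC cells and in 4.94% of oligodendrocytes, and in 9.92%, 8.72%, 8.21% and 1.39% after thinning. For Dlg3 the shares were 34.5%, 37.2% and 28.9% with 1.14% in oligodendrocytes, and 5.54%, 7.06%, 7.79% and 0.362% after thinning. Shank2 was seen in 12.2%, 13.1% and 10.4% of SST, PVALB and NGFC cells, with 0.0848% in oligodendrocytes, and in 1.97%, 2.04%, 2.12% and 0.0381% after thinning. Shank1 was seen in 6.73%, 10.5% and 6.002% with 0.170% in oligodendrocytes, and in 0.794%, 1.59%, 2.12% and 0.0572% after thinning. Both were far above oligodendrocytes, so these few UMIs were not spread evenly over all cells.

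Dlg1, Dlg2 and Homer1 were read beside microglia, since oligodendrocytes carry them. Dlg1 was seen in 22.6%, 25.8% and 12.8% of WT SST, PVALB and NGFC cells and in 3.83% of 209 microglia (median 1096 UMIs). Thinned to 1000 UMIs, with 94 microglia left out, its shares were 4.05%, 4.77% and 4.32% beside 3.48% in microglia. The level of Dlg1 in microglia, 41.7 ± 23.9 CPM (n = 4), came from 8 UMIs in 202 cells, with 1 UMI in the lowest library, too few to show that microglia express it. Dlg2 was seen in 32.3%, 26.1% and 18.9% beside 0.957% in microglia, and after thinning in 5.54%, 5.60% and 4.996% beside 0.870%. Homer1 was seen in 32.4%, 34.1% and 19.4% beside 1.91% in microglia, and after thinning in 5.05%, 6.11% and 4.66% beside 0.870%.

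The comparison of Grin1-null with WT cells asks whether the scaffold genes change when NMDA receptors are lost. In SST cells of the cortex, 0 of 9 scaffold genes were called (0% of all 12862 genes). In SST cells of the hippocampus, the count was 0 of 9 as well (0% of 12862). Dlgap1 was at 404, 503 and 441 CPM in WT cortex and 485 and 452 CPM in null cortex, and at 471, 467 and 454 CPM in WT hippocampus and 451 and 442 CPM in null hippocampus. The cortical groups of Dlgap1 overlapped, and both hippocampal null libraries lay just below the WT ones. Its log2 change was 0.06 (SE 0.22, edgeR adjusted p = 1.0) in cortex and −0.03 (SE 0.22, adjusted p = 1.0) in hippocampus.

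The lowest and highest scaffold genes in each comparison were picked after their values were seen. Dlg2 was the lowest in SST cells of both regions, with 31.1, 70.5 and 54.6 CPM in WT cortex, 30.3 and 42.5 CPM in null cortex, 32.4, 92.8 and 39.4 CPM in WT hippocampus, and 42.4 and 35.9 CPM in null hippocampus. Its groups overlapped in both regions, and the high value was that of hippocampus WT replicate 2. The log2 change of Dlg2 was −0.47 (SE 0.45, adjusted p = 1.0) in cortex, with −0.76 to −0.21 over fits that left out a library, and −0.44 (SE 0.46, adjusted p = 1.0) in hippocampus, where it was 0.14 without hippocampus WT replicate 2. Homer1 was the highest in cortex, with 45.6, 61.4 and 47.8 CPM in WT and 70.0 and 58.3 CPM in null libraries and a log2 change of 0.30 (SE 0.29, adjusted p = 1.0), with 0.19 to 0.46 over fits that left out a library. In hippocampus Homer1 was at 68.5, 70.1 and 47.2 CPM in WT and 33.3 and 56.3 CPM in null libraries, at −0.41 (SE 0.29, adjusted p = 1.0). Shank2 was the highest in hippocampus, at 0.23 (SE 0.44, adjusted p = 1.0), with 0.080 to 0.44 over such fits.

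By direction alone, 5 of 9 genes were higher in null SST cells of the cortex and 8 of 9 were lower in those of the hippocampus. The median log2 change was 0.02 and −0.33, beside −0.02 and −0.03 over all genes, and 0.04 and −0.37 with the replicate as a block. Without cortex Grin1-null replicate 2 the cortical median was −0.44. Within chemistry, 2 genes were lower in both replicate pairs of the cortex and 3 in both pairs of the hippocampus, and none was higher in both pairs of either region. Homer1 in the hippocampus was at −1.02 within replicate 1 and −0.31 within replicate 2 (log2 of CPM plus 1). In the edgeR fit without that block, an unadjusted p under 0.05 was reached by none of the 9 genes in either region. It was reached by 299 and 388 genes in all, and DESeq2 called 0 of 9 scaffold genes, with 3 and 1 calls in all. Null SST cells had a median of 14927 UMIs against 7428 in WT cells, and the clusters differed in cortical SST cells. Cluster 23 made up 20.8% of null and 7.31% of WT cells, cluster 12, high in Dlgap1 and Dlg1, made up 26.2% and 12.4%, and cluster 5, low in Dlgap1, made up 16.6% and 33.4%. The part of depth and of these clusters in the values was not tested.

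**Figure D3:**
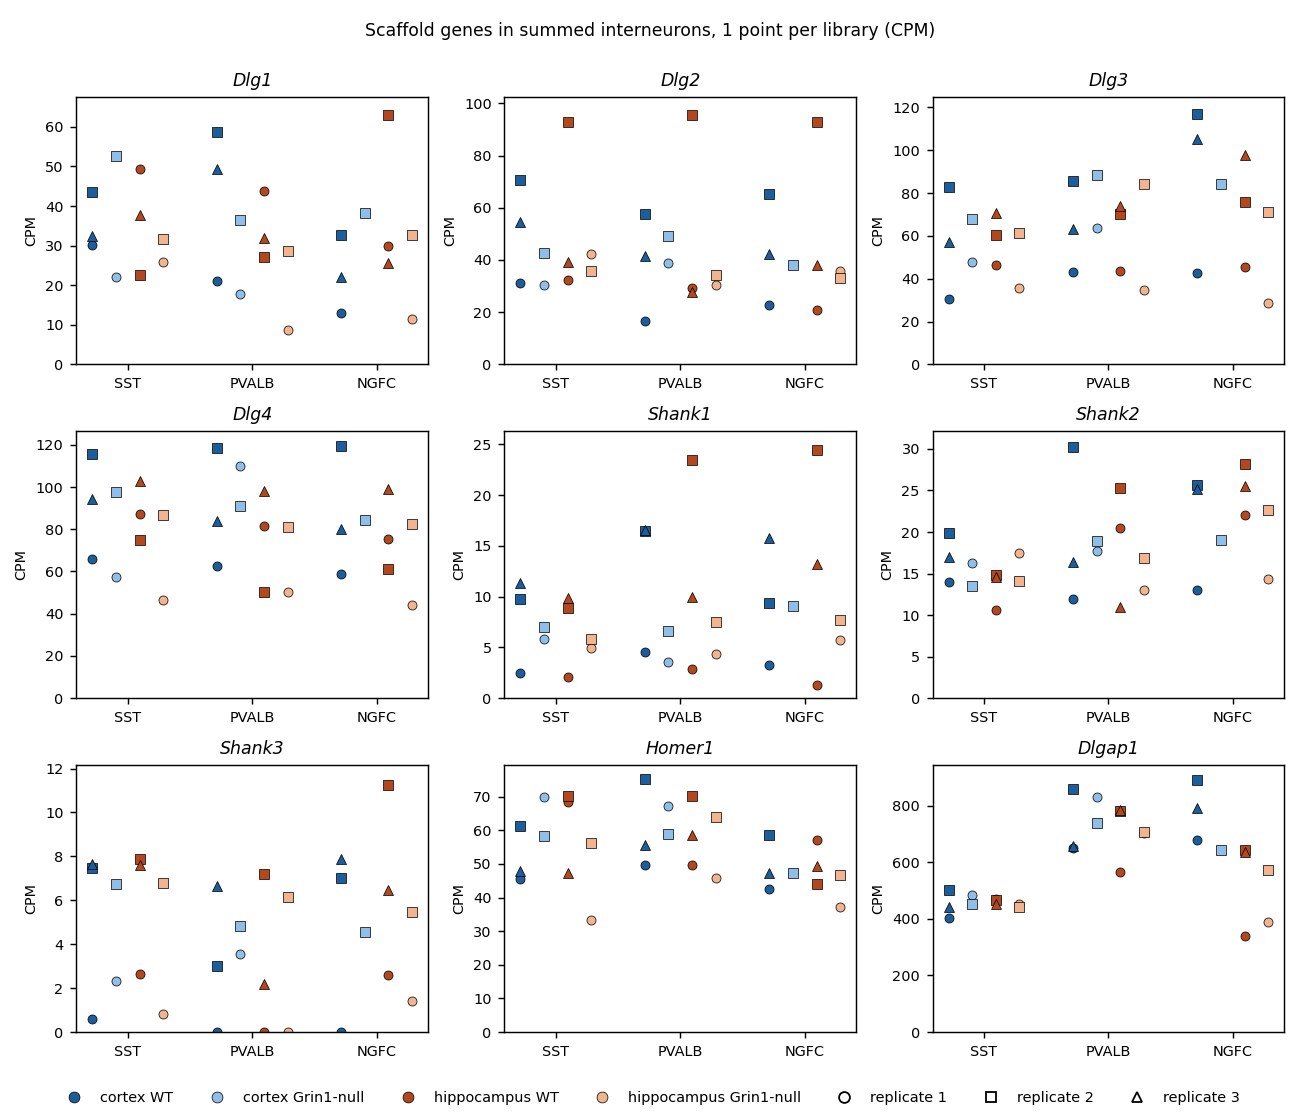
Levels of the 9 scaffold genes in CPM (vertical axes) in the SST, PVALB and NGFC sums of each library, coloured by region and genotype and shaped by replicate. WT and null points of a region overlap for most genes, and hippocampus WT replicate 2 stands high for Dlg2, at 92.8 CPM in SST cells.

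In PVALB cells, 0 of 8 scaffold genes were called in cortex (0% of 9743 genes) and 0 of 8 in hippocampus (0% of 9743). Shank1 was the lowest in both, with 4.59, 16.4 and 16.6 CPM in WT cortex, 3.54 and 6.62 CPM in null cortex, 2.92, 23.4 and 9.93 CPM in WT hippocampus, and 4.36 and 7.53 CPM in null hippocampus. Its v2 libraries were low in both genotypes and the groups overlapped. Within replicates 1 and 2 of the cortex Shank1 was lower in the null, but within replicate 1 of the hippocampus it was higher. The log2 change of Shank1 was −1.15 (SE 0.65, adjusted p = 0.999) in cortex and −0.93 (SE 0.69, adjusted p = 1.0) in hippocampus, where it was −0.17 to −1.48 over fits that left out a library. With the replicate as a block it was −1.39 (SE 0.53, edgeR adjusted p = 0.597) and −1.06 (SE 0.57, adjusted p = 0.633). Dlgap1 was at 649, 858 and 657 CPM in WT cortex and 832 and 738 CPM in null cortex, with a log2 change of 0.14 (SE 0.27, adjusted p = 0.999). In hippocampus Dlgap1 was at 566, 783 and 786 CPM in WT and 703 and 706 CPM in null libraries, at −0.03 (SE 0.27, adjusted p = 1.0). The null values of Dlgap1 lay inside the WT range in both regions.

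Of the 8 genes, 5 were higher in null PVALB cells of the cortex and all 8 were lower in those of the hippocampus, with medians of 0.10 and −0.21 beside −0.003 and −0.01 over all genes. Dlgap1 in the hippocampus, at −0.03, turned positive with no filter on low counts, without integration and in at least 1 fit that left out a library. With the replicate as a block the hippocampal median was −0.34 and the cortical one −0.02, since Dlg2 and Homer1 turned to −0.014 and −0.034, and 3 of 8 genes were higher. Dlg3, the highest in cortex, was at 0.30 (SE 0.37, adjusted p = 0.999), with 0.015 to 0.52 over fits that left out a library. Within chemistry, 2 of the 9 genes were lower and 2 higher in both replicate pairs of the cortex, and 2 were lower in both pairs of the hippocampus. None of the 8 reached an unadjusted p under 0.05 in the edgeR fit without the block in either region, against 365 and 315 genes in all. DESeq2 called none of them, with 15 and 1 calls in all. Cluster 31 made up 23.5% of null and 2.95% of WT cortical PVALB cells, and cluster 25 made up 27.4% and 8.92%. Their part in these values was not tested.

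In NGFCs, 0 of 8 scaffold genes were called in cortex (0% of 9733 genes) and 0 of 8 in hippocampus (0% of 9733). Cortex Grin1-null replicate 1 held 4 NGFCs and was left out, so that the null cortex had 1 library, assumed in the fit to vary like the other groups. Dlgap1 was at 679, 891 and 791 CPM in WT cortex and 645 CPM in the null library, with a log2 change of −0.28 (SE 0.44, adjusted p = 1.0). In hippocampus Dlgap1 was at 339, 644 and 636 CPM in WT and 388 and 573 CPM in null libraries, at −0.15 (SE 0.35, adjusted p = 0.9797). The single cortical null value was below the 3 WT ones, and the hippocampal groups overlapped. Dlg1 was the highest in cortex at 0.74 (SE 0.66, adjusted p = 1.0), with 13.1, 32.7 and 22.0 CPM in WT and 38.1 CPM in the null library, but it was at 0.048 with the replicate as a block. Shank1 was the lowest in hippocampus at −0.92 (SE 0.75, adjusted p = 0.960), with 1.30, 24.4 and 13.3 CPM in WT and 5.72 and 7.73 CPM in null libraries, and −1.38 to −0.30 over fits that left out a library.

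In hippocampal NGFCs all 8 genes tested were lower in the null, with a median log2 change of −0.44 beside −0.04 over all genes. Dlgap1, at −0.15 there, turned positive in at least 1 fit that left out a library. In cortical NGFCs 7 of 8 were lower, with a median of −0.13 beside −0.006, and of −0.32 with the replicate as a block. With that block the hippocampal median was −0.38. Within chemistry, 4 of 9 genes, Dlg1, Dlg3, Shank2 and Shank3, were lower in both replicate pairs of the hippocampus. For Dlg1 the log2 change was −1.31 within replicate 1 and −0.92 within replicate 2, and for Shank2 it was −0.59 and −0.30. Without the block, no scaffold gene reached an unadjusted p under 0.05 by edgeR in NGFCs of either region, against 141 and 336 genes in all. DESeq2 called none of the 8, with 0 and 1 calls in all. The clusters differed between these groups, since cluster 16 held 53.4% of WT and 3.96% of null hippocampal NGFCs. Null NGFCs had a median of 13154 UMIs per cell against 3449 in WT ones. The hippocampal comparisons of the 3 classes share libraries, so their directions are not independent.

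The comparison of WT hippocampus with WT cortex asks whether the same class differs between regions. In SST cells, 0 of 9 scaffold genes were called against 14 of 12862 genes (0.109%). In PVALB cells, 0 of 8 were called against 9 of 9743 genes (0.0924%). In NGFCs, 0 of 8 were called, as was 0% of 9733 genes. In the edgeR fit without a replicate block, no scaffold gene reached an unadjusted p under 0.05 in any class, against 997, 498 and 321 genes in all. DESeq2 called none of them, with 106, 31 and 4 calls in all, and with the replicate as a block edgeR called 31, 18 and 5 genes in all and again none of the scaffold genes.

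Shank2 was the lowest in SST cells, with 10.6, 14.8 and 14.6 CPM in hippocampus and 14.0, 19.9 and 17.0 CPM in cortex, and a log2 difference of −0.42 (SE 0.27, adjusted p = 0.895). It was lower in the hippocampus within each of the 3 replicates. Dlgap1 was the lowest in NGFCs, with 339, 644 and 636 CPM in hippocampus and 679, 891 and 791 CPM in cortex, and a log2 difference of −0.50 (SE 0.31, adjusted p = 1.0), with −0.68 to −0.25 over fits that left out a library. These groups did not overlap, and the values within replicates 1, 2 and 3 were −1.0, −0.47 and −0.32. The NGFC clusters differ between these groups, with cluster 16 at 53.4% of hippocampal and 5.44% of cortical WT NGFCs. In SST and PVALB cells Dlgap1 differed by −0.03 (SE 0.20, adjusted p = 1.0) and −0.02 (SE 0.24, adjusted p = 1.0). Homer1 was the highest in SST cells at 0.18 (SE 0.26, adjusted p = 1.0), with 0.092 to 0.38 over fits that left out a library, and Dlg1 the highest in NGFCs at 0.81 (SE 0.51, adjusted p = 1.0), which was 0.25 without hippocampus WT replicate 2 and at most 1.11 without another library. In PVALB cells, Dlg1 was the lowest at −0.41 (SE 0.41, adjusted p = 1.0), with −0.67 to −0.17 over fits that left out a library, and Dlg2 the highest at 0.37 (SE 0.47, adjusted p = 1.0), which was −0.52 without hippocampus WT replicate 2. The median log2 difference of the scaffold genes was −0.03, −0.05 and 0.15 in SST, PVALB and NGFC cells, beside 0.003, 0.01 and 0.03 over all genes. In each of the 3 replicates, 2 of 9 genes (Shank1 and Shank2) were lower in hippocampal SST cells. In NGFCs, 1 gene (Dlgap1) was lower and 2 (Dlg1 and Shank2) were higher in each, against 0 either way in PVALB cells. With the replicate as a block, Dlg1 and Dlgap1 in NGFCs were at 0.76 (SE 0.35, edgeR adjusted p = 0.992) and −0.55 (SE 0.23, adjusted p = 0.902).

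Other genes of the excitatory postsynapse were followed in a list of 36 scaffold and adaptor genes, all found. Between PVALB and SST cells 14 of 35 tested were called, 7 higher and 7 lower, against 22.1% of all genes, with a median of −0.002. Baiap2, which links scaffolds to actin, had a lowest, median and highest library of 5.92, 15.3 and 22.6 CPM in SST cells and of 0, 1.69 and 3.61 CPM in PVALB cells, at −3.61 (SE 0.38, adjusted p = 3.83e-07). Its call was lost when the libraries were clustered without integration (−1.27, adjusted p = 0.188). Mpdz, a protein of many PDZ domains, was higher in PVALB cells at 2.12 (SE 0.18, adjusted p = 1.33e-08), as was Lin7a, a partner of Cask, at 1.19 (SE 0.13, adjusted p = 7.03e-07). Lrrc7 (densin-180), a partner of CaMKII, was lower at −1.24 (SE 0.21, adjusted p = 9.78e-05). Mpdz, Lin7a and Lrrc7 were called in 6 of 6 fits that left out a library.

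Between NGFC and SST cells 16 of 35 genes of that list were called, 9 higher and 7 lower, against 24.2% of all genes, with a median of 0.12. Lin7a stood out, with a lowest, median and highest library of 278, 379 and 498 CPM in NGFCs against 30.7, 37.4 and 41.5 CPM in SST cells, at 3.35 (SE 0.13, adjusted p = 1.57e-13). Mpdz was at 85.6, 125 and 180 CPM against 7.94, 12.4 and 16.5 CPM, at 3.47 (SE 0.17, adjusted p = 5.34e-12). Neither gene's ranges overlapped. Homer2, the relative of Homer1, was higher in NGFCs at 2.07 (SE 0.15, adjusted p = 1.00e-09), and Sipa1l2, a SPAR protein, was lower at −2.78 (SE 0.20, adjusted p = 1.03e-09). Between NGFC and PVALB cells 14 of 35 were called, 10 higher and 4 lower, against 24.1% of all genes, with a median of 0.16. Sipa1l2 was at −3.07 (SE 0.21, adjusted p = 1.03e-09), Lin7a at 2.16 (SE 0.13, adjusted p = 1.69e-10) and Homer2 at 1.94 (SE 0.17, adjusted p = 2.91e-08). Baiap2 was at 2.27 (SE 0.61, adjusted p = 0.00621), with −0.53 when the libraries were clustered without integration, and it was called in 1 of the 3 fits without a library that tested it and in 7 of 10 other alternatives. None of the list's genes was called in any of the 9 genotype and region comparisons by edgeR, with 0 to 4 of them at an unadjusted p under 0.05.

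Of 10 scaffold genes of the inhibitory postsynapse, 8 were found and 7 tested between classes. Slitrk3, an adhesion protein of inhibitory synapses, was the 1 called gene in each class comparison (22.1%, 24.2% and 24.1% of all genes were called), at 61.2, 66.3 and 80.8 CPM (lowest, median and highest library) in SST, 34.2, 41.1 and 55.5 in PVALB and 19.4, 21.5 and 39.7 CPM in NGFC cells. The ranges followed the order SST, PVALB, NGFC, with overlap between PVALB and NGFC cells. The log2 difference was −0.82 (SE 0.10, adjusted p = 2.58e-06) for PVALB against SST, −1.495 (SE 0.13, adjusted p = 1.18e-08) for NGFC against SST and −0.67 (SE 0.15, adjusted p = 0.00128) for NGFC against PVALB, where it was not called in 1 of 6 fits that left out a library. The medians of the 7 genes were −0.22, −0.05 and −0.09. None of the inhibitory list was called in a genotype or region comparison by edgeR, with 0 or 1 at an unadjusted p under 0.05.

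Of 20 receptors, channels and adhesion proteins that scaffolds bind, 19 were tested between classes and 11 were called in each comparison: 7 higher and 4 lower for PVALB against SST, 6 and 5 for NGFC against SST, and 4 and 7 for NGFC against PVALB. Of all genes 22.1%, 24.2% and 24.1% were called. The medians were 0.17, −0.06 and −0.23. Grin2a, the NMDA receptor subunit whose tail binds PSD-95, had a lowest, median and highest library of 123.2, 202 and 266 CPM in NGFCs and 8.76, 20.8 and 31.0 CPM in PVALB cells, at 3.26 (SE 0.13, adjusted p = 1.66e-12). Gria3, an AMPA receptor subunit, was lower in NGFC than in PVALB cells at −1.97 (SE 0.17, adjusted p = 2.77e-08). Nlgn1, the neuroligin of excitatory synapses, was at 77.1, 89.5 and 98.2 CPM in NGFCs and 11.5, 21.2 and 38.5 CPM in SST cells, at 2.17 (SE 0.16, adjusted p = 1.78e-09). The ranges of Grin2a and Nlgn1 in those classes did not overlap.

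Kcnj4, a potassium channel that binds MAGUKs, was higher in PVALB than in SST cells at 1.62 (SE 0.17, adjusted p = 2.64e-07). Cacng3, an AMPA receptor auxiliary subunit, was lower in PVALB than in SST cells at −1.39 (SE 0.27, adjusted p = 0.000507), in NGFC than in SST cells at −3.15 (SE 0.41, adjusted p = 3.50e-06) and in NGFC than in PVALB cells at −1.76 (SE 0.50, adjusted p = 0.00944), the last called in 2 of 6 fits that left out a library. Its PVALB against SST call was lost without cortex WT replicate 3 (−0.96, adjusted p = 0.0145), with DESeq2 and without the library block. Grin3a was among the markers by which SST clusters were named, so its difference from SST cells (−4.68 in PVALB and −2.40 in NGFC cells) is no test, while it was 2.28 (SE 0.37, adjusted p = 7.33e-05) higher in NGFC than in PVALB cells. No gene of this list was called in a genotype or region comparison by edgeR, with 0 to 5 at an unadjusted p under 0.05.

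Likeness was measured over 18 WT sums (6 libraries by 3 classes) after removing each library's mean, among 6746 genes of at least 20 CPM, as a description with no test. Dlgap1 was most like Pak6 (r = 0.956), the mitochondrial mt-Rnr1 (r = 0.950) and its relative Dlgap2 (r = 0.945). Dlg3 was most like Kidins220 (r = 0.936), Nasp (r = 0.931) and Arhgef6 (r = 0.907), and Homer1 most like Dnajc5 (r = 0.877), Fam210a (r = 0.868) and Pigq (r = 0.867). No scaffold gene of the 9 was among these nearest genes of another. Dlg4 was nearest to Nit1 (r = 0.873), Gsk3b and Hspa13, Dlg2 to Gna11 (r = 0.867), Ppp3r1 and Spcs2, and Dlg1 to Ubxn2a (r = 0.870), Tex264 and Dalrd3. Among the 6 scaffold genes above that level, the highest pair was Dlg3 with Dlgap1 (r = 0.620) and the lowest Dlg4 with Dlgap1 (r = −0.479). The sums of a library share its depth and chemistry. Shank1, Shank2 and Shank3 were under 20 CPM and were not compared.

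The 9 genes lie on 7 chromosomes of mm10, with Dlg2, Shank1 and Shank2 on chromosome 7, Dlg3 on X, Dlg4 on 11, Homer1 on 13, Shank3 on 15, Dlg1 on 16 and Dlgap1 on 17. All 9 are on the plus strand. Dlg2 spans 1973 kb, from 90476672 to 92449247, and Dlgap1 spans 852 kb, from 69969073 to 70821413. Shank2 spans 423 kb (144001928 to 144424494), Dlg1 212 kb (31663443 to 31875129) and Homer1 105 kb (93299635 to 93405129). The shorter genes are Shank3 at 60.6 kb (89499623 to 89560261), Dlg3 at 50.7 kb (100767722 to 100818410), Shank1 at 50.3 kb (44310253 to 44360572) and Dlg4 at 30.6 kb (70016942 to 70047522). Shank1 overlaps 1700008O03Rik on the opposite strand, with 786 UMIs in the kept cells beside 958 of Shank1, and Shank3 overlaps Gm15609, with 273 beside 657. Whether counting used the strand is not given in the sources used here, so for Shank1 and Shank3 reads of the partner cannot be told apart from their own. For the other 7 genes, no gene within the span or its 4 kb extension had more than 78 UMIs. Within 4 kb of Grin1 lies Anapc2, with 5862 UMIs beside 12062 of Grin1.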

How the data were processed

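UMI counts of single sorted cells were taken as the authors deposited them, in 4 matrices made with Cell Ranger (2.1.1 per the methods, 3.0.2 per the file headers) on mm10 with gene ends extended by 4 kb. Barcode suffixes gave the 10 libraries, matched to replicates by the cell numbers in the methods. Cells with 200 to 6000 genes and at most 30% mitochondrial UMIs were kept, with the 249 that Scrublet marked as doublets left in (leaving them out is an alternative). Seurat 5.3.0 integrated the 4 matrices and made clusters at a resolution of 1.0. Libraries within a matrix, and so the v2 and v3 chemistries, were not integrated with each other. UMIs were summed per library and class, and sums under 10 cells were left out. edgeR 4.0.16 (TMM scaling, its filter on low counts, quasi-likelihood test, two-sided, Benjamini-Hochberg over all genes tested) was run in 1 model of 4 groups per class, and in 1 model of 3 classes with the library as a block. DESeq2 1.42.0 was the other test. R 4.3.3, Python 3.11.15, scanpy 1.11.5, numpy 2.4.6, pandas 2.3.3, scipy 1.17.1 and matplotlib 3.10.9 were used. The tests were tried on simulated data. Intervals and floors cover counting error.

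Members and lists were chosen with earlier results of these data known. From each list, up to 4 called genes with the largest absolute log2 change were named per comparison. WT cortex and hippocampus sums with the same replicate number were checked for likeness of their deviations (r = 0.264 to 0.770), and each was most like the one with its own number. The genotype groups have 2 such pairs and were not treated as paired. The replicate block is given as an alternative. Cluster 9 was first left unnamed, then named SST by comparing its UMIs with its libraries in place of its matrices, and then left unnamed again, all before any gene's test was seen. Counting it as SST is an alternative chosen after seeing the data, with 3 in place of 2 scaffold genes called between PVALB and SST cells, 3 either way between NGFC and SST cells, and 2353 in place of 2087 and 2448 in place of 2291 genes in all. Standard errors were rederived from the p-values after the log2 changes had been seen, which left changes, p-values and calls as they were. A test of NGFCs of the null cortex, with 1 library, was added where a value with no test had been meant. Promoter and protein sequences were not used here.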

Additional observations from a re-analysis of the deposited data

Results flagged for a closer look

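In WT mice, the Shank2 values of hippocampus over cortex pointed in opposite directions in SST cells and NGFCs. In SST cells the log2 of hippocampus over cortex was −0.37, −0.40 and −0.20 within replicates 1, 2 and 3, with a mean of −0.32. In NGFCs it was 0.71, 0.13 and 0.02, with a mean of 0.29. Replicate 1 carries that mean, and its cortex NGFC sum held 50 cells and 4 Shank2 UMIs. It was picked out because each of the 3 replicates was lower in the hippocampus in SST cells and each was higher in NGFCs. The difference between the classes was not tested, and neither regional difference was called (edgeR adjusted p = 0.895 in SST cells and 1.0 in NGFCs). It was found among 81 pairs of effects looked at. In none of the 27 groups of levels looked at did a library's gap to the next, divided by the range, pass Dixon's 95% critical value.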

How the results depend on the processing

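The count of scaffold genes called was 0 in each genotype and region comparison under each alternative run, the replicate block included, while all-gene counts there were small and moved. In cortical PVALB cells the genotype count of all genes was 0 and became 5 with the replicate block, 6 with a stricter cell filter, 11 with only the 2 groups compared, 9 at an adjusted p under 0.05, 15 with DESeq2 and 1 without cortex WT replicate 1. With no filter on low counts the genotype counts were 25 and 17 (SST cortex and hippocampus), 57 and 16 (PVALB) and 4 and 21 (NGFC), and the region counts 259, 93 and 34 in SST, PVALB and NGFC cells. The region counts were 31, 18 and 5 with the replicate block, 6, 1 and 0 with only the 2 groups compared, and 106, 31 and 4 with DESeq2, and the SST count was 50 with Th cells left out and 3 to 16 over fits without 1 library. At an adjusted p under 0.05 the region counts were 63, 17 and 3, and the PVALB count of 9 was 5 without integration and 0 to 6 over fits without 1 library. Between PVALB and SST cells, 2 scaffold genes were called, but 1 with no filter on low counts, at resolution 1.4 or without integration, 4 with Th cells left out, 3 at an adjusted p under 0.05, with a stricter cell filter or with the variable features left out, 0 without the library block, and 1 to 2 over fits without 1 library. Between NGFC and SST cells, 3 were called, but 4 at an adjusted p under 0.05, 2 without integration or with Th cells left out, 0 without the library block and 1 to 2 without 1 library. Between NGFC and PVALB cells, 0 were called, but 1 at an adjusted p under 0.05, at resolution 0.6, without integration or with the variable features left out, and 0 to 1 without 1 library. Without the library block, all-gene counts were 478, 866 and 724 in place of 2087, 2291 and 2274, and without cortex WT replicate 3 the first was 1363. With Th cells left out, 2220 of 9453 genes were called between PVALB and SST cells and 2169 of 9453 between NGFC and SST cells. Among the single values followed over every alternative, the direction turned for 7. Dlg2 in null against WT hippocampal SST cells was −0.73 to 0.14 over fits without 1 library. Dlgap1 in null against WT hippocampal PVALB cells was 0.038 with no filter on low counts, 0.12 without integration, and −0.17 to 0.072 without 1 library. Dlgap1 in null against WT hippocampal NGFCs was −0.43 to 0.038 without 1 library. Dlg2 in WT hippocampus against cortex in PVALB cells was −0.52 to 0.74, Dlg1 between PVALB and SST cells −0.020 to 0.28, and Grin1 between NGFC and PVALB cells −0.13 to 0.0032 without 1 library. Baiap2 between NGFC and PVALB cells was −0.53 without integration. With the replicate block, scaffold genes not followed over every alternative turned too: Dlg2 and Homer1 in null against WT cortical PVALB cells (−0.014 and −0.034), and Dlg1 and Dlg3 in WT hippocampus against cortex in SST cells (0.050 and 0.062). The cause was not tested. Of 1280 alternative values of single log2 changes, 1188 kept direction and side of the threshold, 52 lost a call, 29 gained one and 11 reversed direction. The null groups have 2 libraries, or 1 for cortical NGFCs, and where an alternative left 1 library in a group it was assumed to vary like the others. Shank1 and Shank3 rest on few UMIs.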
